A study of Mus musculus with 13 samples.

Results

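The 7 genes described here encode the core of major histocompatibility complex (MHC) class II antigen presentation in the mouse: the classical chains H2-Aa, H2-Ab1 and H2-Eb1, the peptide-loading chaperone chains H2-DMa and H2-DMb1, the invariant chain Cd74 and the transactivator Ciita. They were chosen by gene symbol, and all 7 were found among the 34745 genes of the deposited table. Each passed the low-count filter that kept 15703 genes for testing.

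The RNA came from whole kidneys of 13 mice, with 1 library per mouse, in a study of DsbA-L, a protein encoded by Gstk1 and found in mitochondria and peroxisomes. Wild-type (WT) mice given saline numbered 3 (libraries N1, N2 and N3), knockout (KO, DsbA-L-/-) mice given saline 3 (N1, N2 and N3), WT mice given LPS 4 (AKI-12, AKI-13, AKI-317 and AKI-319) and KO mice given LPS 3 (AKI-320, AKI-156 and AKI-381). Saline was injected into the abdomen at 200 µL per mouse and lipopolysaccharide (LPS), a component of the bacterial outer membrane used to provoke septic kidney injury, at 10 mg/kg by the same route. The sources used here do not give strain, age, sex, the time from injection to sampling or how the knockout was made.

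Class II molecules are pairs of an alpha and a beta chain that carry peptides from endocytosed protein to CD4+ T cells. The invariant chain escorts new pairs to the endosome, cathepsins trim it, and the DM heterodimer exchanges its last fragment for peptide. Dendritic cells, B cells and macrophages express these genes constitutively or on activation, other cells such as tubular and endothelial cells can be induced to do so by interferon-γ, and in each case CIITA acts through a factor complex bound to a shared promoter element.

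The promoter element is shown because it is a feature of class II genes that does not depend on their levels. The promoter windows were RefSeq sequences of GRCm38.p6 that run from 250 bases before to 50 bases after an annotated gene start, and 4 of the 7 genes had one that was used: H2-Aa, H2-Eb1, H2-DMa and H2-DMb1. The letters CNNNNAAC, from the core of the X box, and TGATTGG, from the Y box, were searched on both strands with 30 to 36 bases from the start of the first to the start of the second. These letters and this spacing were chosen after the class II windows had been read. The capitals below mark these 2 matches, and the sequences are on the strand of the gene. For comparison, 2 relatives that are not members are shown: H2-DMb2, a near copy of H2-DMb1, and H2-Ob, which had fewer counts with LPS.
H2-Aa, chr17:34287863-34287911, minus strand: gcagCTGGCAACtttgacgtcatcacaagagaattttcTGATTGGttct
H2-Eb1, chr17:34305769-34305816, plus strand: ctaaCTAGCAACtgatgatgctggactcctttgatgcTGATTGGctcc
H2-DMb1, chr17:34153090-34153138, plus strand: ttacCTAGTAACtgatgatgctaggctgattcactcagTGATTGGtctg
H2-DMb2, chr17:34145119-34145167, plus strand: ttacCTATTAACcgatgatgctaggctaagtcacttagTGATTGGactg
H2-Ob, chr17:34238811-34238856, plus strand: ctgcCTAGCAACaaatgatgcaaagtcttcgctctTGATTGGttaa

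The pair was found in H2-Aa, H2-Eb1 and H2-DMb1, 3 of the 4 members with a window, and in the non-members H2-DMb2, H2-Ob, H2-Oa and H2-Eb2. Of these, H2-Ob was called lower with LPS in both genotypes. In the 5 genes shown the Y box began 50 to 92 bases before the RefSeq start of the gene, with a spacing of 31 to 34 bases. For H2-DMb1 the deposited table places the start further upstream, so that the matches lie inside the gene as tabled. The pair was present in 67 of 32851 windows (0.204%) and the Y box on its own in 2568 (7.82%). Both windows of H2-DMa held neither the pair nor the Y box. They lie upstream of the H2-DMa locus as the deposited table gives it. A match describes letters in a window and shows no binding.

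Coordinates in the table were those of GRCm38. Of the class II genes, 5 lie close together on chromosome 17: H2-DMa (34135182 to 34139101), H2-DMb1 (34153072 to 34160230), H2-Ab1 (34263209 to 34269418), H2-Aa (34282744 to 34287827, minus strand) and H2-Eb1 (34305877 to 34316199). Cd74 lies on chromosome 18 (60803848 to 60812646) and Ciita on chromosome 16 (10488178 to 10527564). Exons of Ciita overlap those of Dexi on the opposite strand. The sources used here do not say whether the counting used strand, so reads in the overlap of Ciita and Dexi cannot be told apart. H2-DMb1 and H2-DMb2 are near copies, so reads could be divided between them, and the microRNA gene Mir5107 lies within an exon of Cd74.

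Libraries held 14372212 to 17668334 counts, of which 12.6% to 22.9% were mitochondrial transcripts, and TMM factors ran from 0.772 to 1.19. With LPS the factors did not overlap between the genotypes, at 0.772 to 0.994 in WT and 1.02 to 1.19 in KO. Gstk1 had 297 to 830 counts in the WT libraries and 1 to 60 in the KO libraries. Treatment went together with the sex-linked transcripts: Xist had 11446 to 19041 counts in every saline library and at most 10 in every LPS library, and Ddx3y had 0 counts with saline and 951 to 2996 with LPS. LPS and sex therefore cannot be told apart in any comparison of LPS with saline below. In whole kidney, more class II cells and more class II RNA per cell cannot be told apart either. No source states that the mice were handled independently, and each label number was taken as 1 mouse.

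In WT kidneys all 7 class II genes were called higher with LPS than with saline. H2-DMb1 had the highest fold change and H2-Eb1 the lowest, and the median over the 7 was 1.45 on the log2 scale against 0.00017 over all tested genes. Calls needed an adjusted p below 0.05 in edgeR's quasi-likelihood test. By that rule 28.4% of all tested genes rose here and 28.6% fell, so a call alone was common. In KO kidneys the 7 genes were also all called higher with LPS, with a median of 1.58 against 0.026 over all genes. There the background was 14.7% higher and 12.9% lower. None of these 7 genes was called lower in either genotype.

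H2-Ab1, the beta chain of the A molecule, was the classical chain with the highest fold change. Its level was 39.9, 49.7 and 51.7 CPM (counts scaled to the library's TMM-corrected total) in WT saline libraries N1, N2 and N3 and 134 and 176 CPM in WT LPS libraries AKI-317 and AKI-319 and 139 and 149 CPM in AKI-12 and AKI-13. In KO libraries it was 63.3, 51.1 and 56.9 CPM with saline (N1, N2, N3) and 161, 197 and 154 CPM with LPS (AKI-320, AKI-156, AKI-381). Every LPS library lay above every saline library. This was a log2 fold change of 1.67 ± 0.17 (SE) in WT (edgeR adjusted p = 3.16e-06) and 1.58 ± 0.17 in KO (adjusted p = 2.47e-05).

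H2-Aa encodes the alpha chain that pairs with H2-Ab1, and its change was smaller. It stood at 42.8, 54.0 and 71.6 CPM in WT saline and at 92.9, 122, 109 and 103 CPM in WT LPS libraries, in the same order as above. In KO libraries it stood at 68.5, 70.4 and 67.8 CPM with saline and at 85.3, 139.9 and 94.7 CPM with LPS. The groups did not overlap, but the mean of the KO LPS group was carried by library AKI-156. The log2 fold change was 0.93 ± 0.20 in WT (edgeR adjusted p = 0.00163) and 0.63 ± 0.21 in KO (adjusted p = 0.0417). Without library AKI-156 the KO value was 0.39 with an adjusted p of 0.198. The KO call was also lost without any 1 of the KO saline libraries (adjusted p of 0.0972 to 0.108), WT saline library N2 (0.0574) or WT LPS library AKI-13 (0.0511).

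H2-Eb1, the beta chain of the E molecule, moved least. It stood at 44.5, 56.8 and 54.1 CPM in WT saline and at 70.9, 84.7, 57.9 and 77.3 CPM in WT LPS libraries. In KO libraries the levels were 70.4, 61.1 and 60.6 CPM with saline and 107, 96.9 and 83.4 CPM with LPS. WT LPS library AKI-12 was only just above the highest WT saline library. The log2 fold change was 0.49 ± 0.16 in WT (edgeR adjusted p = 0.0201) and 0.58 ± 0.17 in KO (adjusted p = 0.0229). The WT call was lost without WT saline library N1 (0.39, adjusted p = 0.102), and the KO call without KO saline library N2 (adjusted p = 0.0841), N3 (0.0803) or KO LPS library AKI-320 (0.0698). The partner of this chain is an E alpha chain, and the row H2-Ea-ps had 0 counts in all 13 libraries.

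**Figure D1:**
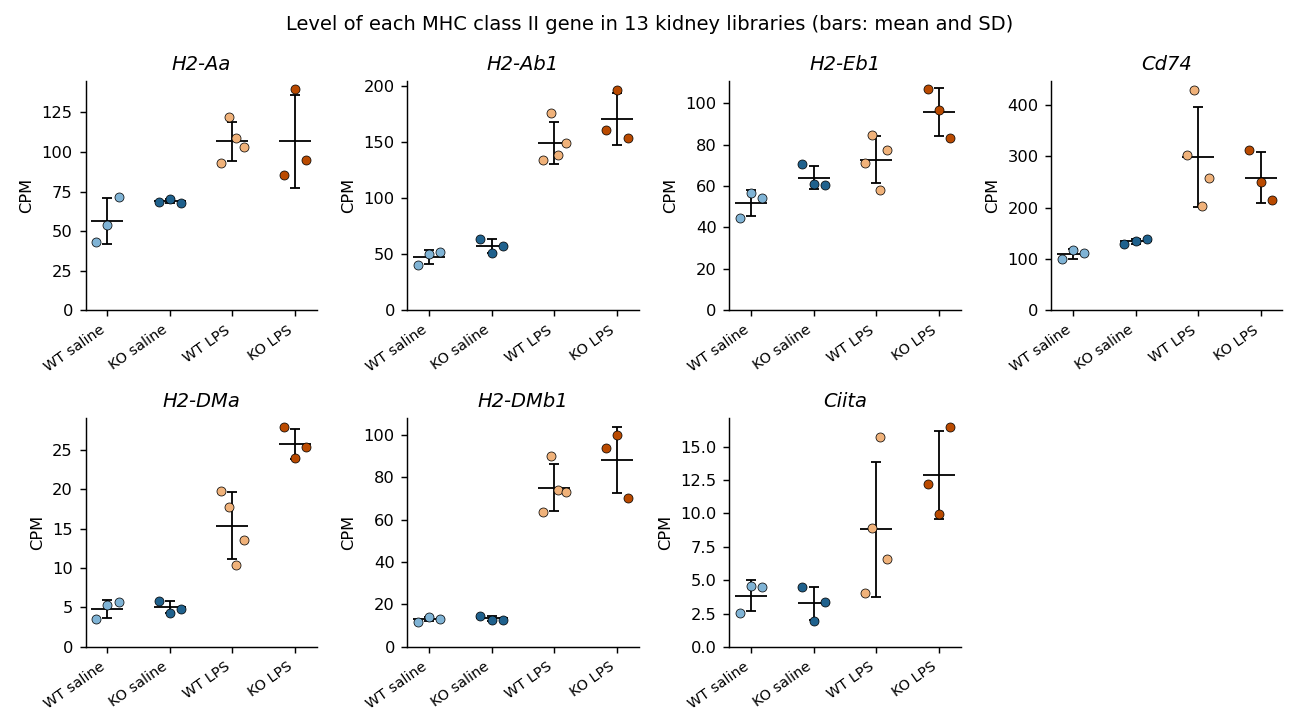
Level of each gene in CPM (y axis, linear from 0) in each of the 13 libraries, grouped by genotype and treatment, with horizontal bars for the group mean and whiskers for the SD (n = 3, 3, 4 and 3). All LPS points lie above the saline points of the same genotype for 6 genes, and for Ciita only in KO.

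Of the DM chains, which load peptide, H2-DMb1 had the highest fold change of the 7 genes with LPS in both genotypes. It rose from 11.9, 14.1 and 13.3 CPM in WT saline libraries to 63.3, 90.0, 73.8 and 73.1 CPM in WT LPS libraries. In KO libraries it rose from 14.7, 12.8 and 12.8 CPM to 93.6, 99.7 and 70.2 CPM. The lowest LPS library was thus far above the highest saline library in both genotypes. In log2 fold change this was 2.52 ± 0.18 in WT (edgeR adjusted p = 2.90e-07) and 2.71 ± 0.19 in KO (adjusted p = 6.23e-07).

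H2-DMa, the alpha chain of the same heterodimer, came next to H2-DMb1 in fold change in KO, and level with H2-Ab1 in WT. It stood at 3.52, 5.34 and 5.68 CPM in WT saline and at 19.8, 17.8, 10.3 and 13.5 CPM in WT LPS libraries. In KO libraries it stood at 5.84, 4.35 and 4.83 CPM with saline and at 27.9, 24.0 and 25.4 CPM with LPS. The KO LPS libraries were close to each other and all above the 4 WT LPS libraries. The log2 fold change was 1.66 ± 0.25 in WT (edgeR adjusted p = 9.08e-05) and 2.36 ± 0.26 in KO (adjusted p = 2.86e-05).

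Cd74, the invariant chain, was the gene of the set with the most counts. Its levels were 99.6, 118 and 111 CPM in WT saline and 303, 431, 203 and 258 CPM in WT LPS libraries. In KO libraries they were 129, 135 and 139 CPM with saline and 312, 249.8 and 215 CPM with LPS. The WT LPS libraries differed among themselves by more than the saline libraries, with AKI-319 highest and AKI-12 lowest. Cd74 thus had a log2 fold change of 1.45 ± 0.23 in WT (edgeR adjusted p = 0.000132) and 0.94 ± 0.24 in KO (adjusted p = 0.00875).

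Ciita, the transactivator, had only 32 to 289 counts per library. On the log2 scale its spread was the widest of the 7 genes in 3 of the 4 groups, and in KO LPS that of H2-Aa was slightly wider. It stood at 2.54, 4.54 and 4.46 CPM in WT saline and at 4.04, 8.88, 15.8 and 6.57 CPM in WT LPS libraries. In KO libraries it stood at 4.46, 1.96 and 3.34 CPM with saline and at 12.2, 9.96 and 16.5 CPM with LPS. The KO groups did not overlap, whereas WT LPS library AKI-317 lay within the range of WT saline. The log2 fold change was 1.19 ± 0.42 in WT (edgeR adjusted p = 0.0272) and 1.98 ± 0.45 in KO (adjusted p = 0.00501). The WT call was lost without WT LPS library AKI-12 (0.74, adjusted p = 0.101) or WT saline library N1 (0.96, adjusted p = 0.111).

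With LPS, every library of the higher group lay above every library of the lower group for 6 of the 7 genes in WT, where 29.1% of all tested genes did so upwards, and for 7 of 7 in KO, where 23.3% did.

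**Figure D2:**
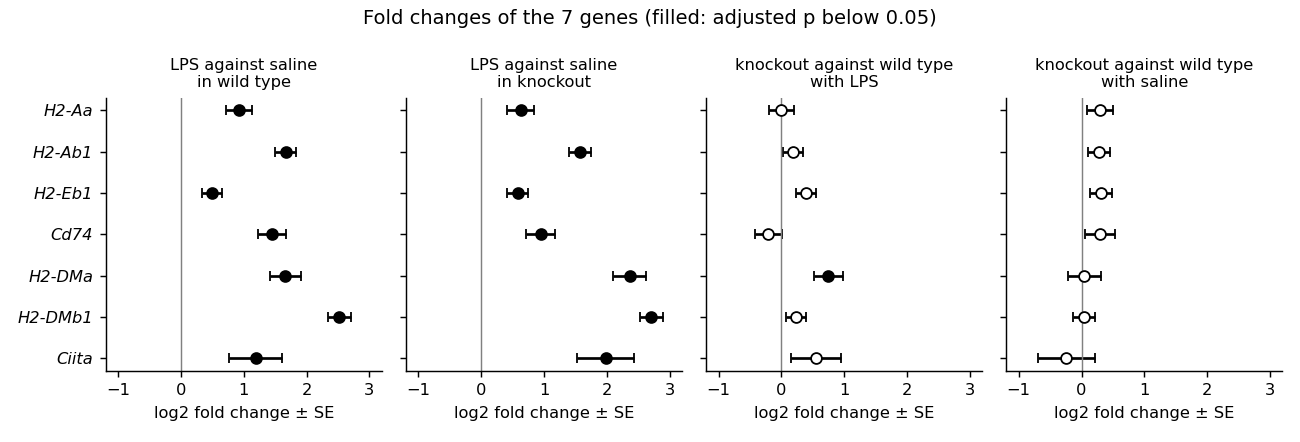
Log2 fold change with its SE (x axis) for each gene (y axis) in 4 comparisons. Filled points passed an adjusted p of 0.05 in edgeR's test: 7 of 7 for LPS against saline in each genotype, H2-DMa for KO against WT with LPS, and none with saline.

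Between the genotypes after LPS, H2-DMa was the 1 gene of the 7 called, higher in KO, against backgrounds of 8.74% called higher and 6.29% lower. Its log2 difference was 0.75 ± 0.23 (edgeR adjusted p = 0.0436), from 15.3 ± 4.25 CPM (SD, n = 4) in WT to 25.8 ± 1.94 CPM (SD, n = 3) in KO. It was also the 1 gene whose KO LPS libraries all lay above the WT LPS libraries, which 9.21% of all tested genes did upwards. The call was narrow: it was lost in 14 of 23 alternative analyses, while the log2 difference stayed between 0.60 and 0.89 when any single library was left out. Leaving out KO LPS library AKI-320, AKI-381 or WT LPS library AKI-12, AKI-13 or AKI-319, or any saline library except WT N1, ended it. Without KO LPS library AKI-156 it was 0.79 (adjusted p = 0.0348).

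The other 6 genes did not pass in that comparison. The log2 difference of KO from WT with LPS was -0.00 ± 0.20 for H2-Aa (edgeR adjusted p = 0.997), 0.19 ± 0.16 for H2-Ab1 (0.429) and 0.40 ± 0.16 for H2-Eb1 (0.105). It was 0.23 ± 0.16 for H2-DMb1 (edgeR adjusted p = 0.351), -0.21 ± 0.22 for Cd74 (0.545) and 0.55 ± 0.40 for Ciita (0.361). The median over the 7 genes was 0.23 and that over all genes -0.0014. When libraries were scaled by their totals alone, which moved the median of all genes to 0.34, H2-Ab1, H2-Eb1, H2-DMa and H2-DMb1 were called higher in KO.

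With saline, none of the 7 was called between KO and WT by edgeR (adjusted p = 1 for each), DESeq2 or limma-voom, and 582 of all tested genes had an unadjusted p under 0.05 in edgeR. The backgrounds were 0.00637% of genes higher and 0.0127% lower. The log2 differences ran from -0.24 for Ciita to 0.31 for H2-Eb1, with a median of 0.28. The KO libraries all lay above the WT libraries for H2-Eb1 (60.6 to 70.4 against 44.5 to 56.8 CPM) and Cd74 (129 to 139 against 99.6 to 118 CPM), which 9.76% of all tested genes also did upwards.

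The difference of the LPS responses between the genotypes (KO minus WT) was not called for any of the 7 genes by edgeR, DESeq2 or limma-voom (3487 of all tested genes had an unadjusted p under 0.05 in edgeR). It was highest for Ciita (0.79 ± 0.60) and H2-DMa (0.70 ± 0.35, edgeR adjusted p = 0.254) and lowest for Cd74 (-0.50 ± 0.32, adjusted p = 0.373). The background was 1.36% of genes called with a positive difference and 0.745% with a negative one. That a gene passed in both genotypes, or in 1 of them, thus does not show that the responses were alike or different.

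Compared per kilobase of gene model (FPKM), the order of the members' mean levels changed with LPS in WT. FPKM were scaled to library totals without TMM factors, so they serve to compare genes within a group and not groups with each other. In WT saline kidneys Cd74 stood at 56.1 ± 5.34 FPKM (SD, n = 3), H2-Eb1 at 44.9 ± 6.01, H2-Aa at 22.5 ± 5.86, H2-Ab1 at 20.5 ± 2.90, H2-DMb1 at 8.10 ± 0.747, H2-DMa at 2.26 ± 0.556 and Ciita at 0.753 ± 0.227. H2-Aa and H2-Ab1 did not differ beyond their spread. In WT LPS kidneys Cd74 stood at 134 ± 46.5 FPKM (SD, n = 4), H2-Ab1 at 56.7 ± 8.36, H2-Eb1 at 55.2 ± 11.7, H2-DMb1 at 40.3 ± 5.56, H2-Aa at 37.1 ± 3.70, H2-DMa at 6.33 ± 2.23 and Ciita at 1.43 ± 0.658. The libraries of H2-Ab1 and H2-Eb1 then overlapped.

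In KO saline kidneys the order was that of WT saline, with Cd74 at 67.6 ± 2.45 FPKM (SD, n = 3), H2-Eb1 at 54.5 ± 5.01, H2-Aa at 27.1 ± 0.304, H2-Ab1 at 24.4 ± 2.81, H2-DMb1 at 8.15 ± 0.714, H2-DMa at 2.29 ± 0.363 and Ciita at 0.625 ± 0.244. In KO LPS kidneys Cd74 stood at 146 ± 33.2 FPKM (SD, n = 3), H2-Eb1 at 91.4 ± 13.6, H2-Ab1 at 81.2 ± 3.45, H2-DMb1 at 59.5 ± 8.32, H2-Aa at 46.3 ± 8.20, H2-DMa at 13.3 ± 2.01 and Ciita at 2.80 ± 0.906. H2-DMb1, below H2-Aa in each of the 6 saline libraries, was above it in each of the 7 LPS libraries.

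The proportions of the chains within each library, in which scaling between libraries cancels, differed between saline and LPS in the same way in both genotypes. The FPKM ratio of H2-Eb1 to H2-Ab1 was 2.08 to 2.27 in WT and 2.12 to 2.37 in KO with saline, and 0.831 to 1.05 in WT and 0.98 to 1.32 in KO with LPS. The ratio of H2-Aa to H2-Ab1 was 0.986 to 1.27 in the 6 saline libraries of both genotypes and 0.487 to 0.722 in the 7 LPS libraries. The ranges of these 2 ratios did not overlap between treatments.

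The ratio of the mean DM chain to the mean of the 3 classical chains was 0.144 to 0.185 over the saline libraries and 0.446 to 0.54 over the LPS libraries. The ratio of Cd74 to the 3 chains overlapped between treatments, at 1.71 to 2.09 with saline and 1.70 to 3.33 with LPS. Within the DM pair, the ratio of H2-DMb1 to H2-DMa was 3.10 to 4.50 with saline, 4.25 to 9.49 in WT LPS and 3.68 to 5.52 in KO LPS libraries. These ratios are descriptions and were not tested.

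**Figure D3:**
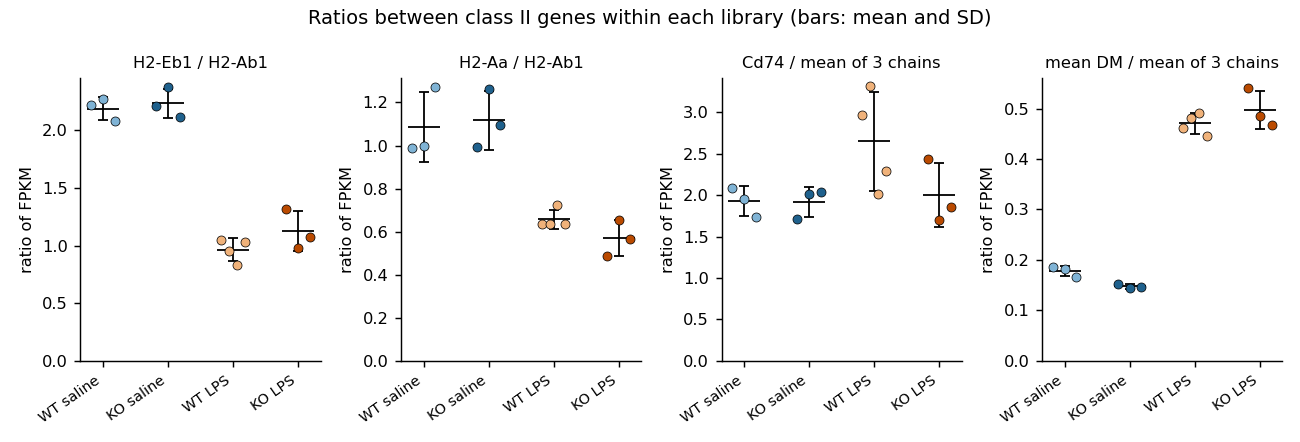
Ratio of FPKM (y axis, from 0) between class II genes in each library, with bars for the group mean and SD. The ratios to H2-Ab1 are lower in the LPS libraries and the DM ratio is higher, with no overlap, while the Cd74 ratio overlaps between saline and LPS.

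The nonclassical relatives moved in opposite directions. H2-DMb2, the near copy of H2-DMb1, had 2 to 29 counts in the saline libraries and 103 to 278 in the LPS libraries, and rose by 4.42 ± 0.43 on the log2 scale in WT (edgeR adjusted p = 2.75e-06) and 3.64 ± 0.39 in KO (2.28e-05). H2-Ob, the beta chain of the DO molecule that in antigen-presenting cells restrains DM, had 14 to 28 counts with saline and 0 to 7 with LPS. Its log2 fold change was -2.58 ± 0.68 in WT (edgeR adjusted p = 0.00548) and -3.38 ± 0.78 in KO (0.00573). H2-Oa, the alpha chain of DO, was too low to be tested, with 2 to 15 counts with saline and 0 to 2 with LPS. H2-Eb2 had 0 to 3 counts in every library.

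Of 7 tested factors that bind the class II promoter, 2 were called higher and 1 lower in WT, against 28.4% and 28.6% of all genes. In KO 0 were higher and 1 lower, against 14.7% and 12.9%. Both shares of calls were near or below the background. Rfx5, a DNA-binding subunit of the X-box complex RFX, stood at 8.93 to 18.4 CPM in WT saline and 31.9 to 36.2 CPM in WT LPS, a log2 rise of 1.21 ± 0.22 (edgeR adjusted p = 0.000424). In KO it stood at 17.8 to 22.5 CPM with saline and 20.3 to 27.7 CPM with LPS (0.33 ± 0.23, adjusted p = 0.315), and the difference of the responses was -0.88 ± 0.32 (0.129). The other RFX subunits, Rfxap and Rfxank, were not called, with log2 fold changes in WT of 0.18 ± 0.24 and 0.04 ± 0.25. Nfyc, a subunit of the Y-box factor NF-Y, fell by 1.27 on the log2 scale in WT and by 0.87 in KO (edgeR adjusted p = 0.000164 and 0.00978), while Nfyb was called higher in WT at 0.57 ± 0.23 (0.0494) with overlapping libraries. The count of 2 in WT fell to 1 when any 1 of 8 libraries was left out.

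Upstream of Ciita, interferon-γ itself was barely counted: Ifng had 0 to 6 counts in every library and was not tested. Of 9 tested genes of the route from interferon-γ to Ciita, 8 were called higher with LPS in WT and 6 in KO, where 28.4% and 14.7% of all genes were, and none lower. The count in WT was 5 without WT saline library N3 or with library totals. Irf1, a factor at the interferon-inducible Ciita promoter, stood at 8.61 to 17.7 CPM in WT saline, 60.5 to 122 CPM in WT LPS, 11.4 to 15.2 CPM in KO saline and 28.2 to 35.5 CPM in KO LPS.

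Irf1 and Socs1, the feedback inhibitor of the route, were the 2 of the 9 called between the genotypes with LPS, both lower in KO, where 6.29% of all genes were. The log2 difference was -1.46 ± 0.30 for Irf1 (edgeR adjusted p = 0.00901) and -2.79 ± 0.65 for Socs1 (0.0142). Neither was called when the fit held only these groups, and 1 of the 2 was left without KO LPS library AKI-320 or AKI-381. Ciita, listed downstream of them, was 8.81 ± 5.04 CPM (SD, n = 4) in WT and 12.9 ± 3.30 CPM (SD, n = 3) in KO after LPS, with the log2 difference of 0.55 given above.

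The genes of antigen processing and class II turnover numbered 12, all tested. In WT 8 were called higher and 0 lower (28.4% and 28.6% of all genes), in KO 6 higher and 1 lower (14.7% and 12.9%). Ctss, the cathepsin that trims the invariant chain, stood at 12.6 to 17.8 CPM in WT saline and 43.8 to 77.4 CPM in WT LPS, and at 18.7 to 23.4 and 50.2 to 85.0 CPM in KO. Its log2 fold change was 1.92 ± 0.25 in WT (edgeR adjusted p = 2.73e-05) and 1.58 ± 0.25 in KO (0.000484). Ctsl, a cathepsin of many tissues, rose by 3.35 ± 0.40 and 2.27 ± 0.40, whereas Ifi30, a thiol reductase of the endosome, did not pass (0.37 ± 0.23 and 0.56 ± 0.24). The WT count of 8 fell to 5 without WT saline library N1.

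Between the genotypes with LPS, 3 of the 12 were called lower in KO and none higher, against 6.29% and 8.74% of all genes: Cd83, which stabilises surface class II (-1.48 ± 0.46, edgeR adjusted p = 0.0450), Sppl2a, the protease that removes the last stub of the invariant chain (-0.53 ± 0.16, 0.0450), and Ctsh (-0.91 ± 0.29, 0.0484). This count fell to 0 or 1 when any 1 of 11 libraries was left out, and KO LPS library AKI-156 and WT LPS library AKI-317 were not among the 11. It was also 0 with library totals, with the replicate block and with only the groups compared.

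MHC class I genes, which present peptides from inside the cell, gave a different picture between the genotypes. All 15 were called higher with LPS in both genotypes, where 28.4% (WT) and 14.7% (KO) of all genes were, with medians of 3.17 in WT and 2.37 in KO, against 1.45 and 1.58 for the class II genes. With LPS, 8 of the 15 were called lower in KO than in WT and none higher (6.29% and 8.74% of all genes), with a median of -0.71 where that of the class II genes was 0.23. Tap1, the peptide transporter, stood at 203 to 341 CPM in WT LPS and 74.4 to 100 CPM in KO LPS (-1.71 ± 0.24, edgeR adjusted p = 0.00301). Nlrc5, the class I counterpart of Ciita, differed by -1.01 ± 0.28 (0.0279). The call of Nlrc5 was lost with library totals (-0.68, adjusted p = 0.0761), with the replicate block (0.0590), with only the groups compared (0.0852), and without WT LPS library AKI-319 or KO LPS library AKI-320 or AKI-381. The count of 8 fell to 1 without KO LPS library AKI-381, to 3 without AKI-320, to 4 without WT LPS library AKI-319, to 2 with library totals and to 1 with only the groups compared. The difference between the class I and class II medians was not tested.

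**Figure D4:**
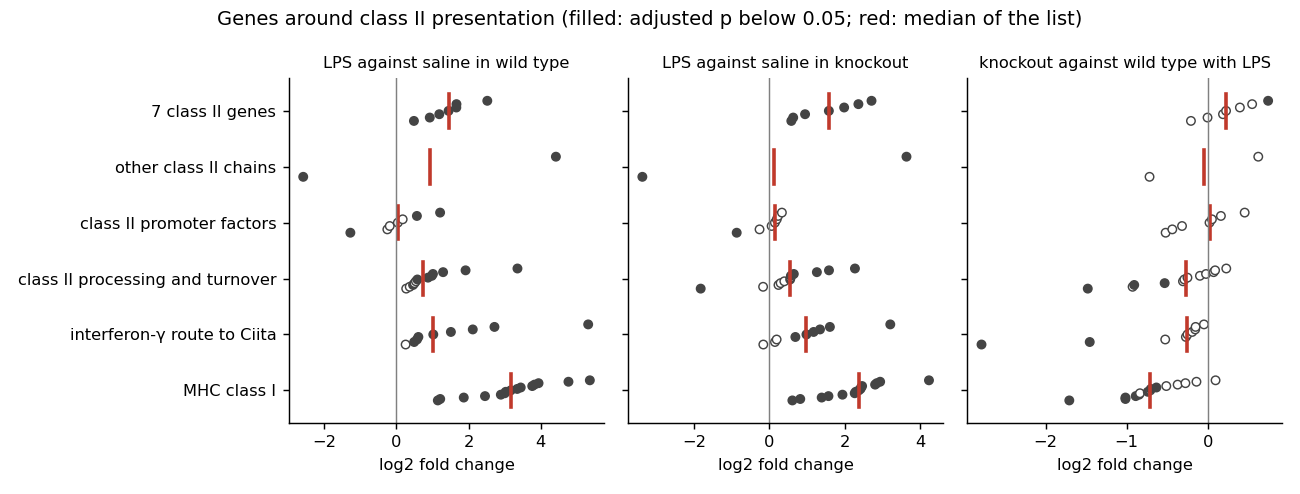
Log2 fold change (x axis, its range differs between panels) of each tested gene of 6 lists (y axis) in 3 comparisons, filled where the adjusted p was below 0.05, with a red bar at the list's median. Class I genes lie at 0.10 or below in KO against WT with LPS, while the class II genes lie between -0.21 and 0.75.

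Markers of the cells that carry class II in the kidney gave mixed counts. Of 12 dendritic cell markers, 2 were called higher and 6 lower with LPS in WT, against 28.4% and 28.6% of all genes. In KO 2 were higher and 2 lower, near the background of 14.7% and 12.9%. Of the 2 higher in KO, 1 was left without KO LPS library AKI-156 or KO saline library N2 or N3, and of the 2 lower, 0 with only the groups compared. The 2 called higher were Irf8 (2.98 in WT, 1.68 in KO) and Ccr7 in both genotypes. Ccr7 had log2 fold changes of 5.66 in WT (edgeR adjusted p = 2.64e-05) and 2.62 in KO (0.0151). Cd209a was called lower in WT (-4.25, adjusted p = 0.00151). Xcr1 had 3 to 20 counts in every saline library and 0 in all 7 LPS libraries. Xcr1 was called lower in KO (-6.28, adjusted p = 0.0106). Clec9a, named after its values were seen, was called lower in WT with a log2 fold change of -4.02 (edgeR adjusted p = 0.00234). These falling markers are picked from the 12, and Irf8 and Ccr7 went the other way. The summed level of the list nevertheless ran from 34.8 to 44.8 CPM in WT saline to 102 to 187 CPM in WT LPS. Irf8, a factor also found in macrophages and B cells, made up 83.3 to 164 CPM of it there. In KO the sum ran from 35.7 to 39.1 CPM with saline to 58.7 to 78.0 CPM with LPS, and Irf8 stood at 35.4 to 63.4 CPM with LPS. After LPS, 2 of the 12 were called lower in KO than in WT and 0 higher (6.29% and 8.74% of all genes). These were Irf8 (-1.22, edgeR adjusted p = 0.0101) and Ccr7 (-2.54, 0.0115). This count was 0 with only the groups compared or without KO LPS library AKI-381, and 1 without AKI-320.

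The 12 macrophage and monocyte markers summed to 112 to 132 CPM in WT saline, 131 to 139.8 CPM in KO saline, 88.6 to 107 CPM in WT LPS and 150.4 to 167 CPM in KO LPS. With LPS against saline, 4 were called higher and 5 lower in WT (28.4% and 28.6% of all genes), and 6 higher and 1 lower in KO (14.7% and 12.9%). The sums of saline and LPS libraries did not overlap in either genotype, and LPS was lower in WT and higher in KO. Single markers did not all follow the sums. On the log2 scale Csf1r fell in both genotypes (-2.11 in WT, -1.53 in KO), and Cd68 rose in both (2.54 and 2.68). Between the genotypes with LPS, 7 of the 12 were called higher in KO than in WT and none lower (8.74% and 6.29% of all genes), among them C1qa, a complement component of resident macrophages, at 5.13 to 13.1 CPM in WT and 20.2 to 31.1 CPM in KO (1.58 ± 0.27, edgeR adjusted p = 0.00480). This count was 1 when the fit held only the groups compared. Of the 10 B cell markers only 2 were tested, and the list summed to 6.29 to 15.2 CPM over all libraries. The 8 T cell markers summed to 2.79 to 8.52 CPM. The part of these cell markers in the levels of the class II genes was not tested.

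**Figure D5:**
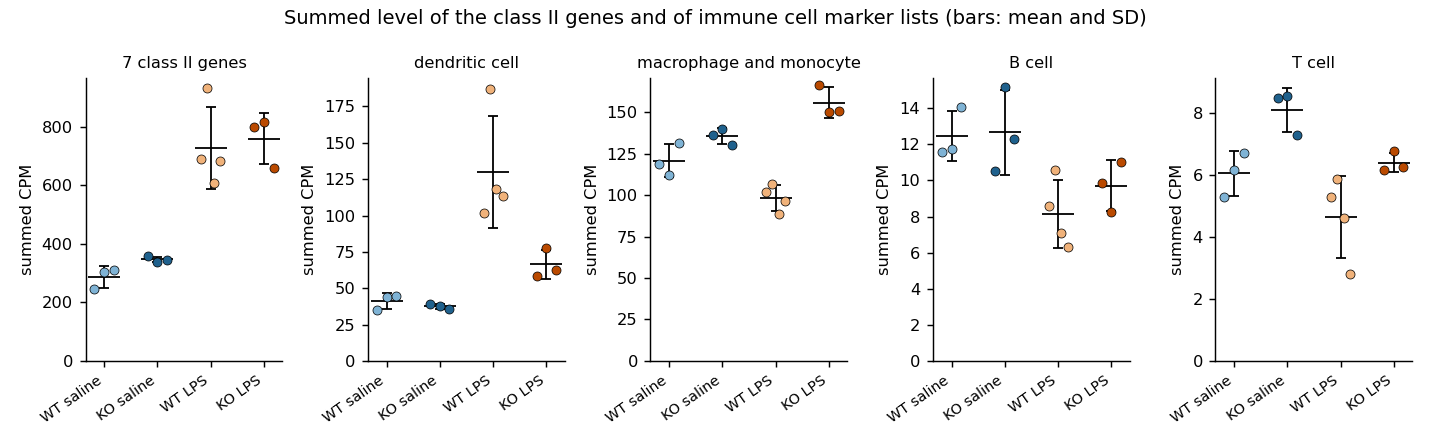
Summed CPM (y axis, from 0) of the 7 class II genes and of 4 marker lists in each library, with bars for the group mean and SD. The class II sum is above every saline library in every LPS library, the macrophage sum is lowest in WT LPS, and the B cell and T cell sums stay at or below 15.2 and 8.52 CPM.

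Proximal tubule markers were called lower with LPS, 10 of 10 in WT and 9 of 10 in KO (28.6% and 12.9% of all genes). Their sum went from 9807 to 11451 CPM over the saline libraries to 2031 to 4095 CPM over the LPS libraries. Neutrophil markers were called higher, 7 of 7 tested in each genotype (28.4% of all genes in WT, 14.7% in KO). Their sum was 1.22 to 2.27 CPM over the saline libraries and 30.9 to 251 CPM over the LPS libraries. In WT LPS it was 43.9 and 39.7 CPM in AKI-317 and AKI-319 but 185 and 119 CPM in AKI-12 and AKI-13. In KO LPS it was 38.2 and 30.9 CPM in AKI-320 and AKI-381 but 251 CPM in AKI-156. The part of this spread in the comparisons of KO with WT was not tested. Of 10 endothelial markers, 7 were called lower and 3 higher in WT (28.6% and 28.4% of all genes), so the share higher was near the background. In KO 3 were called lower and 0 higher (12.9% and 14.7%). With saline no marker of these 3 lists was called between the genotypes (0.00637% of all genes were higher and 0.0127% lower). With LPS, KO against WT called 6 endothelial markers higher and 1 lower, against 8.74% and 6.29% of all genes. There 1 proximal tubule marker was called higher and 3 lower, and no neutrophil marker was called. The changes in marker RNA went along with the LPS responses of the class II genes, and their part in them was not tested.

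The genes whose profiles were most like the mean profile of the 6 members other than Ciita were sought among 10869 tested genes with a mean of at least 5 CPM, by the root mean square difference of log2 CPM over the 13 libraries after each gene's mean was removed. The nearest was Ifi27, an interferon-inducible gene, at 0.172, followed by Fxyd5, Fermt3, Slc39a1, Msn, Tuba1b, Pros1 and Fstl1 at up to 0.223. H2-Ab1 lay at 0.121 from that mean profile and H2-DMb1 at 0.588. Between them were Cd74 at 0.251, H2-DMa at 0.371, H2-Aa at 0.385 and H2-Eb1 at 0.473. All of the 6 but H2-Ab1 thus lay further from their own mean profile than the genes listed. For Ciita the nearest were Calu (0.514), Lpar1, Shtn1, Kctd1 and Tinagl1 (0.535).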

How the data were processed

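Whole-kidney RNA of 13 mice was sequenced. The sample labels gave the genotype and the word Naive or AKI. Naive libraries were taken as saline and AKI libraries as LPS, from the text on the design of the series. The authors deposited 1 table with raw counts and FPKM per gene and library, per the file headers. The deposited FPKM were the counts divided by gene-model length and library total, so they hold nothing beyond the counts and were used only to compare levels between genes. Named without a role in the submitters' processing notes were HISAT2, TopHat, TopHat2 2.0.9, edgeR and the human build hg38. The identifiers were mouse ones: 34267 were found in the GENCODE annotation of GRCm38, 0 on another chromosome and 80.8% with the same start and end. The sources used here do not give the counting tool or strand setting.

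The deposited counts went into edgeR 4.0.16 under R 4.3.3, with filterByExpr at a minimum count of 10, TMM factors, 1 quasi-likelihood fit of 4 group means to all 13 libraries, and Benjamini-Hochberg adjustment over 15703 genes. The code was run on simulated counts in which 200 genes were changed in KO LPS only. These counts held no LPS effect and no sex difference, so the run does not bear on the calls given above. CPM used TMM factors, and the profiles used a prior count of 2. Replicates differed by far more than counting noise, with a chi-square per degree of freedom of 12.5 to 121 over genes with at least 20 summed counts. Alternatives were RLE factors, library totals, DESeq2 1.42.0, limma-voom (limma 3.58.1), no filter, at least 1 CPM in 3 libraries, only the groups compared, an absolute fold of at least 2, no mitochondrial transcripts, a block for saline label numbers, and each library left out in turn. Named genes were the 7 members, up to 3 called genes with the smallest p from each list, and upstream genes and paralogs fixed by name. Clec9a and H2-Ea-ps were named after their values were seen. The members and lists were chosen with earlier results of these data known.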

Additional observations from a re-analysis of the deposited data

Results flagged for a closer look

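Among 4 WT LPS libraries, 1 stood apart in each of 2 measures. For the FPKM ratio of H2-Aa to H2-Ab1, library AKI-12 lay at 0.722 and the others at 0.633 to 0.638, so the gap took up 0.948 of the range, past the critical gap of Dixon's test for 4 samples. For Irf8, library AKI-319 lay at 164 CPM and the others at 83.3 to 93.6 CPM, a gap of 0.873 of the range. In all, 33 sets of 4 libraries were examined, and chance flags about 5% of such sets.

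The LPS responses of 3 genes around the class II set differed between the genotypes by edgeR's test of the difference itself (KO minus WT, log2). The macrophage gene Cx3cr1 differed by 4.254 (adjusted p = 0.0298): it had 51 to 94 counts in WT saline and 0 to 4 in WT LPS libraries, against 62 to 84 and 21 to 88 in KO. The class I genes Tap1 and H2-Q4 differed by -1.918 (adjusted p = 0.0298) and -1.562 (0.0393), with a smaller rise in KO. All 3 calls were lost with the replicate block and when any 1 of several libraries was left out.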

How the results depend on the processing

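All 7 class II genes kept their direction in both LPS comparisons under all 23 alternatives. In WT 8 of 161 calls changed and in KO 16 of 161. With each library left out in turn, 5 to 7 of the 7 were called higher in WT and 5 to 7 in KO, and with a fold of at least 2 the KO count was 4. Ciita in WT was also lost with limma-voom (1.04, adjusted p = 0.0615) and with library totals (0.93, 0.0599), and H2-Eb1 in WT with library totals (0.30, 0.202). H2-Aa in KO was also lost with RLE factors (adjusted p = 0.0501) and with only the groups compared (0.0613).

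For KO against WT with LPS, the 1 class II gene called higher became 4 with library totals and 0 with no filter, with the replicate block, with only the groups compared and with a fold of at least 2, and 0 to 1 with a library left out. Over all genes this comparison called 1373 higher and 988 lower, against 3323 and 477 with library totals, 774 and 559 with the block, and 48 and 54 with only the groups compared. Left-out libraries moved it both ways, to 2434 and 2105 without KO LPS AKI-156, 479 and 253 without AKI-320, 348 and 172 without AKI-381, and 835 and 576 without WT LPS AKI-319. Ngp, a neutrophil marker, turned to -1.80 without AKI-156, and its log2 difference otherwise reached 0.87 with a library left out. Library totals moved the median of all genes by -0.20 in WT, 0.19 in KO and 0.34 between genotypes with LPS. The difference of the responses called 213 and 117 genes, 5 and 4 with the block, 1414 and 1115 without AKI-156, and 5 to 20 in each direction without any 1 saline library. It called 8 and 10 without AKI-320, 6 and 8 without AKI-381, 27 and 19 without AKI-319, 102 and 74 without AKI-317, 121 and 83 without AKI-12, and 264 and 191 without AKI-13. Library totals gave 801 and 94, DESeq2 786 and 613, and limma-voom 65 and 58.

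Same-numbered saline libraries did not deviate together (correlations across genes of 0.018, -0.050 and -0.030). With 3 libraries per saline group, this cannot show whether the numbers paired the mice. With the replicate block, H2-Aa (0.62, adjusted p = 0.0664) and H2-Eb1 (0.58, 0.0537) in KO and H2-DMa between genotypes (0.75, 0.0849) lost their calls. The causes of these changes were not tested.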
